A study of Mus musculus with 2 samples.

Results

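The genes described here encode brakes on the growth kinase complex mTORC1, repressors of translation that mTORC1 switches off, and adaptors of insulin signalling through which mTORC1 feeds back. They are 10 genes, chosen by name for these roles (Ddit4, Ddit4l, Sesn1, Sesn2, Sesn3, Eif4ebp1, Eif4ebp2, Irs1, Irs2 and Grb10), out of 22096 gene symbols in the data. Each was found once in both tables. The data are RNA sequencing of sciatic nerve from mice of mixed strain at postnatal day 7, with 1 library from control animals and 1 from Tsc1cKO animals, a conditional knockout of Tsc1. The names that the submitters gave the tables carry Dhh-cre for both groups, with 1 conditional Tsc1 copy beside an intact copy for control and 2 conditional copies for Tsc1cKO, as read here. Dhh is active in the Schwann cell lineage from its precursor stage, so the control animals would then carry the recombinase and a single working copy of Tsc1 in those cells. How many animals stand behind a library is not given in the sources used here.

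mTORC1 promotes protein synthesis and cell growth, and the TSC complex, of which Tsc1 encodes a subunit, holds it back by acting on the small GTPase Rheb. DDIT4 (also called REDD1) restrains mTORC1 through the TSC complex when cells lack oxygen or are under stress, whereas sestrins restrain it through the amino acid sensing branch. Downstream, mTORC1 phosphorylates the 4E-BPs so that they release the cap-binding factor eIF4E, and it damps insulin signalling by way of IRS adaptors and GRB10. In Schwann cells, mTORC1 activity is known to be high before myelination and to decline as the cells differentiate.

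With 1 library per group there was no replicate and no test, so "higher" and "lower" describe these 2 libraries, not the genotypes. Levels are in FPKM (mapped fragments scaled for transcript length and for the library), which allows levels of different genes to be compared. Differences are in log2(FPKM + 1), Tsc1cKO minus control, a scale that understates the change of low genes, and folds are ratios of FPKM. A gene was called measured at 1 FPKM or more in either library, which held for 12409 genes, and a difference of 1 or more on the log2 scale was called 2-fold. A gene can thus be more than 2-fold apart in FPKM without being past 2-fold by this rule. The median difference of all measured genes was 0.20 rather than 0, so each difference is also given centred, that is after dividing Tsc1cKO by a factor of 1.18 that brings the median log2 ratio of genes reaching 5 FPKM in each library to 0. Tsc1 itself was at 3.76 FPKM in control and 2.28 FPKM in Tsc1cKO, a value that covers all cells of the nerve and the whole gene.

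Of the 10 genes, 1 was at least 2-fold higher in Tsc1cKO, Ddit4, where 5.03% of measured genes were. None of the 10 was at least 2-fold lower, where 3.06% of measured genes were. After centring these counts were the same, against 2.89% and 4.69% of measured genes. By direction alone 7 genes were higher and 3 lower, against 67.0% and 33.0% of all measured genes, and centred 4 were higher and 6 lower, against 49.1% and 50.9%. The median difference of the 10 genes was 0.15, beside 0.20 for all measured genes, and −0.08 centred, beside −0.01. Both medians lay near those of all measured genes, and Ddit4 was the only one of the 10 beyond 2-fold. All 10 counted as measured, but Ddit4l did so only through its Tsc1cKO value.

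**Figure D1:**
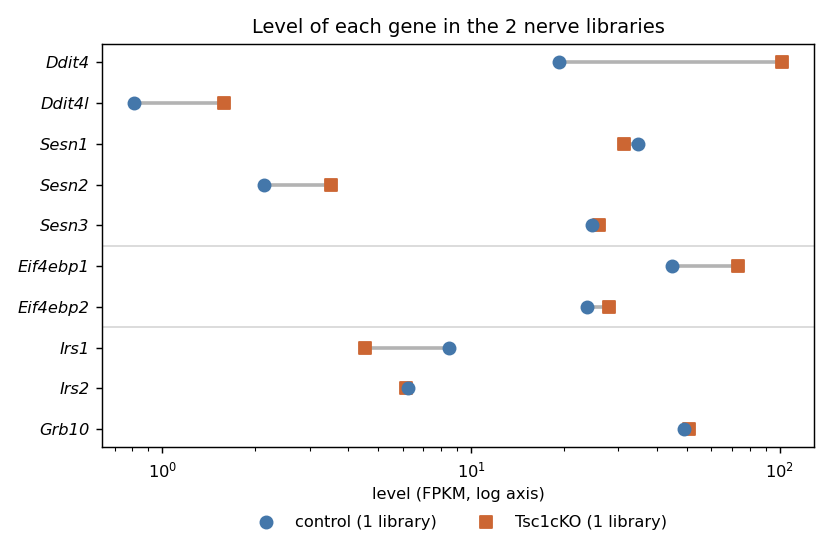
Level of each of the 10 genes in FPKM on a log axis, with a circle for the control library and a square for the Tsc1cKO library, in the order brakes, translation repressors and insulin adaptors. Ddit4 is furthest apart between the libraries, at 19.3 and 102 FPKM, and Irs1 has the square furthest below its circle, at 8.49 and 4.53 FPKM.

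The promoters of Ddit4 and Irs1 are shown because these genes had the largest differences of the 10, Ddit4 upward and Irs1 downward. The letters are RefSeq sequence of build GRCm38.p6, 250 bases before the transcription start, on the gene's own strand from 5′ to 3′. Capitals mark ACGTG on either strand, a form of the core bound by hypoxia-inducible factors. Only this form of the core was searched and marked.
Ddit4, chr10:59951771-59952020, minus strand: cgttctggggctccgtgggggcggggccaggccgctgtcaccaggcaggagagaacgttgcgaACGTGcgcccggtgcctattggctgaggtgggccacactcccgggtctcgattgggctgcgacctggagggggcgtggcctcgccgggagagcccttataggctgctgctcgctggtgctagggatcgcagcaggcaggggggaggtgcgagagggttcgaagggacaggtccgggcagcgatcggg
Irs1, chr1:82291440-82291689, minus strand: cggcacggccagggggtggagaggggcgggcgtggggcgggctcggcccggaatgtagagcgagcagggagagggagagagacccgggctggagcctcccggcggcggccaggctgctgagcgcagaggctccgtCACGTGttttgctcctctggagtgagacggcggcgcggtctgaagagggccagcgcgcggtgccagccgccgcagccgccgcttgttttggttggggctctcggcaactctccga

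Promoter windows were found for 9 of the 10 genes, 11 windows in all, since Sesn1 and Grb10 have 2 starts each. ACGTG was in 4 of the 11 windows, those of Ddit4, Eif4ebp2, Irs1 and Irs2, and in 16.6% of all 32851 promoter windows of this length. In Ddit4 its first base was at position −187 from the start. In Irs1 the 2 matches at −115 and −114 are the 2 strands of a single CACGTG, the E-box, which was in 2 of the 11 windows (Irs1 and Irs2) and in 6.02% of all. CCAAT, the box bound by NF-Y, was in 6 of the 11 windows and in 33.8% of all, with 2 matches each in Ddit4, Sesn2 and Irs2 and 4 in Sesn3. Neither TGATGNAAN, the element bound by ATF4 with C/EBP factors, nor the FOXO site TGTTTAC was in any of the 11 windows, against 3.44% and 3.17% of all windows, both strands searched. All 11 windows held more G and C, 54% to 81.2% of their bases, than the median of all windows, 52.4%. The shares of all windows were not matched for this content, so they are no measure of excess or lack in these genes. These matches describe letters in a short window. Genes with ACGTG in that window had differences of 2.34 (Ddit4), 0.22 (Eif4ebp2), −0.01 (Irs2) and −0.78 (Irs1), so they did not share a direction.

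Ddit4 encodes the stress-induced brake that works through the TSC complex. It lies on chromosome 10, 59412423 to 59414518 (mm9, as are all gene spans here). Its level was 19.3 FPKM in control and 102 FPKM in Tsc1cKO, 5.27-fold higher, a difference of 2.34 and of 2.10 centred. Only 64 of the 12409 measured genes had a larger positive difference. In control Ddit4 was above 72.1% of measured genes and in Tsc1cKO above 93.8%. Among the 10 genes it moved from place 6 in control to place 1 in Tsc1cKO, and from 9.04% to 31.1% of their summed FPKM.

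Ddit4l, which encodes the related brake REDD2, was far lower in level. On chromosome 3, 137286636 to 137291296, it was at 0.812 FPKM in control and 1.58 FPKM in Tsc1cKO, 1.95-fold higher, a difference of 0.51 and of 0.37 centred. It was the lowest of the 10 genes in both libraries. The ratio of Ddit4 to Ddit4l, which does not depend on scaling between libraries, was 23.8 in control and 64.3 in Tsc1cKO. Most message of this pair was Ddit4 in either library.

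The sestrins did not share the Ddit4 pattern. Together they reached 61.6 FPKM in control and 60.7 FPKM in Tsc1cKO. Sesn1, a p53 target in many cell types (chromosome 10, 41530380 to 41628242), was the highest of the 3 and was slightly lower in Tsc1cKO, at 34.7 FPKM in control and 31.2 FPKM in Tsc1cKO, a difference of −0.15 and of −0.38 centred. Sesn3, which FOXO factors induce (chromosome 9, 14080745 to 14130578), was at 24.7 FPKM in control and 25.9 FPKM in Tsc1cKO. Its difference of 0.07 turned to −0.16 when centred, so its direction rested on the scaling.

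Sesn2 encodes the sestrin that binds leucine and releases the GATOR2 complex, and is induced by ATF4 and p53. On chromosome 4, 132048722 to 132066371, it was at 2.13 FPKM in control and 3.52 FPKM in Tsc1cKO, 1.65-fold higher, a difference of 0.53 and of 0.35 centred. It made up 3.46% of sestrin FPKM in control and 5.81% in Tsc1cKO, beside 56.4% and 51.5% for Sesn1 and 40.1% and 42.7% for Sesn3. Sesn2 was the lowest of the 3 in both libraries. Set against the 3 sestrins together, Ddit4 was at 0.314 of their summed level in control and 1.68 times it in Tsc1cKO.

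**Figure D2:**
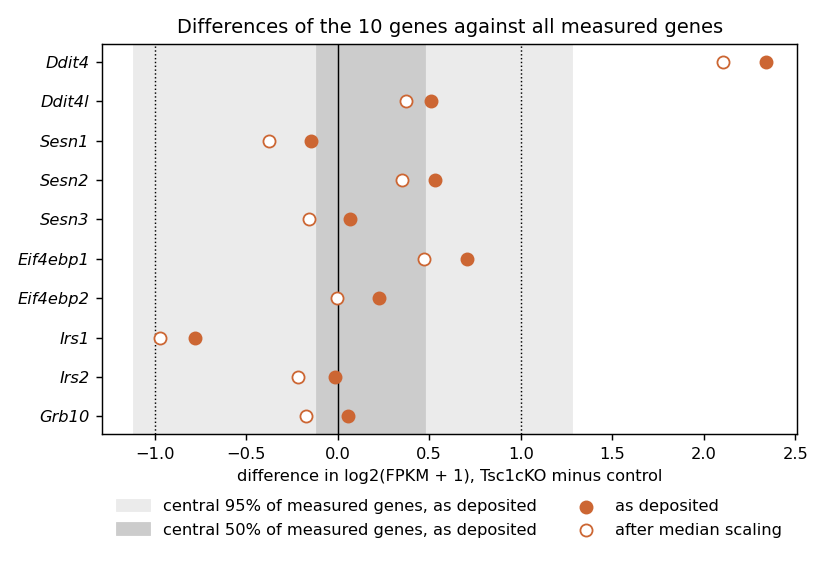
Difference in log2(FPKM + 1), Tsc1cKO minus control, of each of the 10 genes, as deposited (filled) and after median scaling (open), with the shading showing where the central 50% and 95% of the 12409 measured genes lie as deposited. Ddit4, at 2.34, is the only one of the 10 outside the wider band of −1.12 to 1.28, and Irs1, at −0.78, is the lowest of the 10.

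The translation repressors were both higher as deposited, but only Eif4ebp1 stayed so when centred. Eif4ebp1 encodes 4E-BP1 (chromosome 8, 28370799 to 28386128). It was at 44.6 FPKM in control and 73.4 FPKM in Tsc1cKO, 1.65-fold higher, a difference of 0.71 and of 0.47 centred. Rank 1511 of 12409 from the top placed it among the higher genes without reaching 2-fold. Eif4ebp2, which encodes 4E-BP2 (chromosome 10, 60895245 to 60915417), was at 23.8 FPKM in control and 28.0 FPKM in Tsc1cKO, a difference of 0.22 that was −0.0036 centred, about the median of the transcriptome.

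The ratio of Eif4ebp1 to Eif4ebp2 was 1.87 in control and 2.63 in Tsc1cKO, 1.40 times as high, and this ratio is free of the scaling between libraries. Together the pair summed to 68.4 FPKM in control and 101 FPKM in Tsc1cKO. Eif4e, their binding partner, was at 18.2 FPKM in control and 22.4 FPKM in Tsc1cKO, so the summed repressor level was 3.76 times that of Eif4e in control and 4.52 times in Tsc1cKO. Eif4e was added to the comparison after the values of the repressors were seen. These are levels of message and say nothing of phosphorylation, by which mTORC1 controls the proteins.

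The coding ends of the pair are shown because they hold the longest stretch that the 2 coding sequences share, and because that stretch spells the TOS motif by which mTORC1 recognises the 4E-BPs. Capitals mark bases identical at the same place in the last 48 coding bases, stop codon included, read from GENCODE M21 transcripts (build GRCm38).
Eif4ebp1: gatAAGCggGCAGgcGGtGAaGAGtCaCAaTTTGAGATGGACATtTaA
Eif4ebp2: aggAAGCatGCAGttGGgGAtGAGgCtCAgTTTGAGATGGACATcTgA
In this window 34 of 48 bases were identical, and the longest identical run was 14 bases. No window of 50 bases in the Eif4ebp2 transcripts occurred in the transcripts of another gene. The runs shared within the other families were 13 bases for Ddit4 and Ddit4l, 14 to 23 bases among the sestrins and 21 bases for Irs1 and Irs2, so paralogues within these families share only short stretches of coding sequence.

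**Figure D3:**
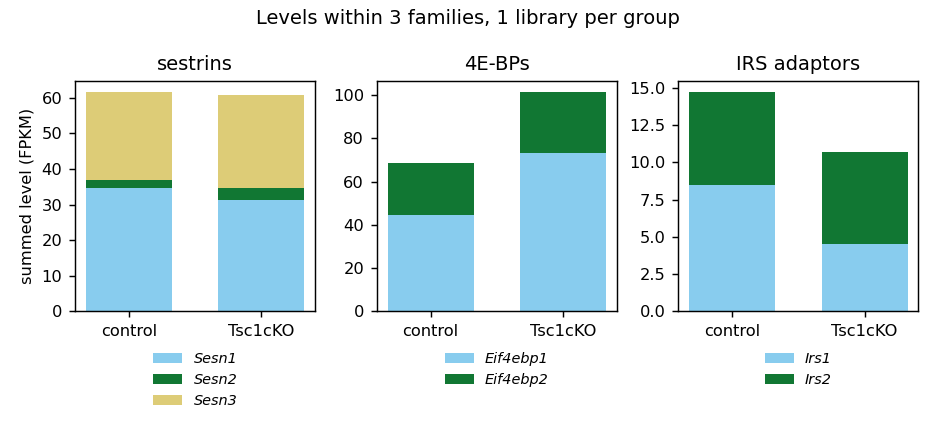
Stacked levels in FPKM of the 3 sestrins, the 4E-BPs Eif4ebp1 and Eif4ebp2, and the adaptors Irs1 and Irs2, with 1 bar per library and each axis starting at 0. The sestrin bars are about equal in height (61.6 and 60.7 FPKM), the 4E-BP bar is higher in Tsc1cKO through Eif4ebp1, and the IRS bar is lower in Tsc1cKO through Irs1.

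Irs1 had the most negative difference of the 10 genes. It encodes the main adaptor that couples the insulin and IGF1 receptors to PI3K, and its protein is a target of the mTORC1 substrate S6 kinase. On chromosome 1, 82229680 to 82288014, Irs1 was at 8.49 FPKM in control and 4.53 FPKM in Tsc1cKO, 1.88-fold lower, a difference of −0.78 and of −0.97 centred. It thus came close to 2-fold on this scale without passing it, and its fold of FPKM passed 2 when centred (2.21-fold lower). From the bottom it held rank 611 of 12409.

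This value carries a limit of annotation. In GENCODE M21 30.5% of the 50-base windows of the Irs1 transcript occur, both strands searched, in another gene, Gm9747. The deposited data list no other gene that overlaps the span of Irs1 or of Irs2. No use of strand is stated for these data, so fragments of Irs1 and Gm9747 from those windows could not be told apart. The same held for 1.80% of the windows of Irs2, through the gene 9530052E02Rik, while 3.17% of Eif4ebp1 windows and 0.181% of Ddit4l windows occurred in transcripts of other genes. For Ddit4, the 3 sestrins and Grb10 that share was 0.

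Irs2, whose product couples the same receptors and whose gene FOXO factors induce (chromosome 8, 10986964 to 11008430), was at 6.23 FPKM in control and 6.16 FPKM in Tsc1cKO. Its difference was −0.01 and −0.21 centred. The ratio of Irs2 to Irs1 was 0.733 in control and 1.36 in Tsc1cKO, so the order of the adaptors was inverted, with Irs1 above Irs2 in control and below it in Tsc1cKO. Their summed level was 14.7 FPKM in control and 10.7 FPKM in Tsc1cKO.

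Grb10 encodes an adaptor that binds the insulin and IGF1 receptors and inhibits them, and that mTORC1 phosphorylates and stabilises. On chromosome 11, 11830502 to 11937423, it was at 48.8 FPKM in control and 50.8 FPKM in Tsc1cKO. Its difference of 0.06 turned to −0.18 when centred. Grb10 was the highest of the 10 genes in control and place 3 in Tsc1cKO. The ratio of Grb10 to the 2 IRS adaptors together was 3.32 in control and 4.75 in Tsc1cKO.

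The order of levels in control ran from Grb10 through Eif4ebp1, Sesn1, Sesn3, Eif4ebp2, Ddit4, Irs1, Irs2 and Sesn2 to Ddit4l. In Tsc1cKO Ddit4 came first, followed by Eif4ebp1, Grb10, Sesn1, Eif4ebp2, Sesn3, Irs2, Irs1, Sesn2 and Ddit4l. Without replicates no spread is known for any of these steps, so neighbours such as Sesn3 and Eif4ebp2, at 24.7 and 23.8 FPKM in control, cannot be ranked beyond these libraries.

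The pathway around the 10 genes was read from lists compiled from general knowledge, leaving the 10 genes out. Of 15 measured genes for the TSC complex, Rheb and the mTOR complexes, 6 were higher and 9 lower, with a median difference of −0.12 (−0.30 centred), beside 0.20 (−0.01) for all measured genes. Centred, 3 were higher and 12 lower. Of all measured genes 67.0% were higher, or 49.1% centred. Prr5, encoding an mTORC2 subunit, was at 18.6 FPKM in control and 8.69 FPKM in Tsc1cKO. It was the only gene of the list past 2-fold, downward, where 3.06% of all measured genes were. Rhebl1, encoding a relative of Rheb, was at 1.46 FPKM in control and 3.68 FPKM in Tsc1cKO. These levels were 2.53-fold apart, but the difference was 0.93, short of the rule.

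Genes for amino acid sensing by mTORC1, the branch on which sestrins act, included 21 of 25 with a higher value, 16 when centred, beside 67.0% and 49.1% of all measured genes, and their median was 0.33 (0.13 centred). Of these Rragd, which encodes a Rag GTPase, passed 2-fold, at 1.17 FPKM in control and 4.46 FPKM in Tsc1cKO. Past 2-fold upward were 5.03% of all measured genes. Flcn, encoding folliculin, the activator of RagC and RagD, was at 10.4 FPKM in control and 21.5 FPKM in Tsc1cKO. Its partner genes Fnip1 and Fnip2 were at 3.36 and 3.60 FPKM in control and at 6.89 and 7.49 FPKM in Tsc1cKO. Flcn, Fnip1 and Fnip2 were each more than 2-fold apart in FPKM, but their differences of 0.98, 0.85 and 0.88 stayed below 1.

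Genes of the insulin receptor, PI3K and AKT, on which the IRS adaptors and Grb10 act, were split into 16 higher and 13 lower of 29, and their median was 0.13 (−0.10 centred). Centred, 11 were higher and 18 lower. Of all measured genes 67.0% were higher, or 49.1% centred. Grb14, a relative of Grb10, was at 30.1 FPKM in control and 18.3 FPKM in Tsc1cKO. Socs3, which encodes an inhibitor of cytokine signalling that can also target IRS proteins, was at 4.20 FPKM in control and 10.5 FPKM in Tsc1cKO. Irs1 and Grb14 were thus both lower in Tsc1cKO, while the list as a whole was spread to both sides.

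Of 24 genes of cap-dependent translation and the S6 kinase arm, which the 4E-BPs oppose, 20 were higher, with a median of 0.21, or −0.02 centred, where 11 were higher. Beside these counts, 67.0% of all measured genes were higher, or 49.1% centred. Eif4a1, encoding the helicase of the cap-binding complex, was at 193 FPKM in control and 401 FPKM in Tsc1cKO. It was the only gene of the list past 2-fold, upward, where 5.03% of all measured genes were. Centred, Eif4a1 was at 0.82, and no gene of this list was past 2-fold. Eef2k, encoding the kinase that inhibits elongation, was at 6.46 FPKM in control and 10.8 FPKM in Tsc1cKO. Among 9 genes of LKB1 and the energy sensor AMPK, which also restrains mTORC1, 7 were higher and 2 lower, with a median of 0.23 (0.0027 centred). Centred, 5 of these 9 were higher and 4 lower. The AMPK subunit gene Prkab2 was at 6.64 FPKM in control and 2.53 FPKM in Tsc1cKO, and Prkaa1, encoding a catalytic subunit, at 3.02 FPKM in control and 4.79 FPKM in Tsc1cKO.

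**Figure D4:**
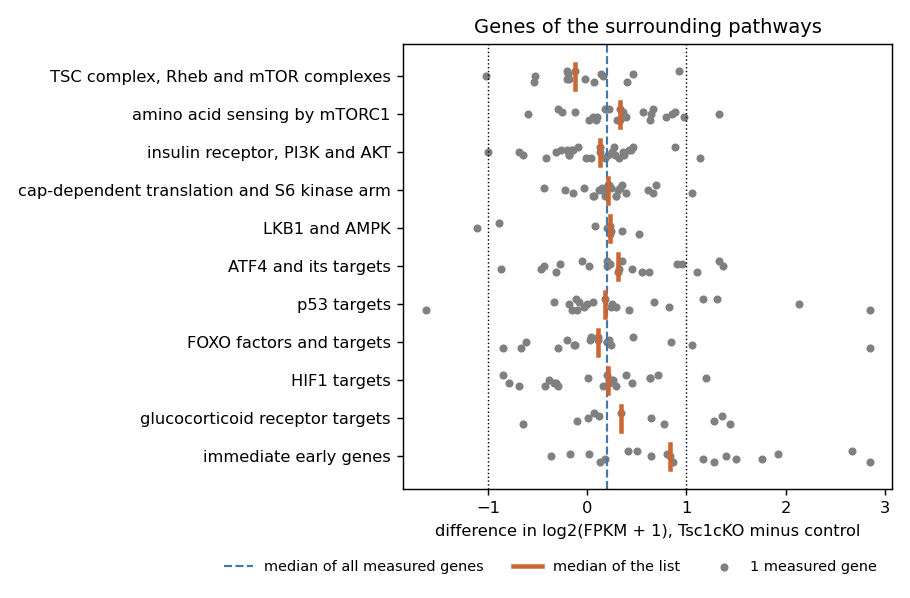
Difference in log2(FPKM + 1), Tsc1cKO minus control, of each measured gene (grey) in 11 lists around the 10 genes, which are left out, with the median of each list (bar) and of all measured genes (dashed line at 0.20). Immediate early genes have the highest median, at 0.83, and the TSC and mTOR list the lowest, at −0.12.

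Ddit4, the sestrins, Eif4ebp1 and Irs2 are known targets of several stress and signal-dependent factors, and the other targets of those factors were counted beside them. For ATF4 and its targets, which include Sesn2, Ddit4 and Eif4ebp1 in other cells, 15 of 21 were higher, or 12 centred. Of all measured genes 67.0% were higher, or 49.1% centred. Past 2-fold upward were Ddit3, Asns and Cebpb, 3 of the 21, or 2 centred, beside 5.03% and 2.89% of all measured genes. The median of the list was 0.31 (0.08 centred). As deposited, 6 of the 21 were lower, among them Slc7a11 (chosen after its value was seen), at 1.80 FPKM in control and 0.533 FPKM in Tsc1cKO. Ddit3 was at 10.6 FPKM in control and 29.0 FPKM in Tsc1cKO. Asns, encoding asparagine synthetase, was at 2.95 FPKM in control and 8.89 FPKM in Tsc1cKO, and Trib3, whose product binds AKT, was at 0.592 FPKM in control and 2.08 FPKM in Tsc1cKO. Atf4 itself was at 99.9 FPKM in control and 124 FPKM in Tsc1cKO.

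For p53 targets, which include Sesn1, Sesn2 and Ddit4, 12 of 21 were higher and 9 lower, with a median of 0.18 (−0.02 centred). Centred, 10 were higher and 11 lower, with 3 past 2-fold upward and 1 downward. Of all measured genes 67.0% were higher, or 49.1% centred. Past 2-fold upward and downward were 5.03% and 3.06%, or 2.89% and 4.69% centred. As deposited, p53 targets past 2-fold lay on both sides, 4 higher and 1 lower. Gadd45a was at 6.37 FPKM in control and 52.2 FPKM in Tsc1cKO, and Cdkn1a at 185 FPKM in control and 59.1 FPKM in Tsc1cKO. FOXO factors and targets, which include Sesn3 and Irs2, had a median of 0.11 (−0.11 centred), with 12 of 19 higher, or 6 centred. Gadd45a, also in this list, and Gabarapl1, an autophagy gene at 60.1 FPKM in control and 126 FPKM in Tsc1cKO, were past 2-fold as deposited. Centred, Gabarapl1 was at 0.82 and only Gadd45a stayed past 2-fold upward. Cat, encoding catalase, was at 66.0 FPKM in control and 36.2 FPKM in Tsc1cKO, a difference of −0.85 that passed 2-fold only when centred (−1.08).

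Targets of HIF1, which include Ddit4, had a median of 0.21 (−0.0059 centred), with 14 of 22 higher and 1 past 2-fold, upward. Of all measured genes 67.0% were higher and 5.03% past 2-fold upward. Centred, 11 HIF1 targets were higher and 11 lower, beside 49.1% and 50.9% of all measured genes. The 2 past 2-fold when centred, Ndrg1 and P4ha1, were lower, where 4.69% of measured genes were. The gene past 2-fold as deposited was Ldha, encoding lactate dehydrogenase, at 122 FPKM in control and 281 FPKM in Tsc1cKO, while Ndrg1 was at 597 FPKM in control and 330 FPKM in Tsc1cKO. The glucocorticoid receptor also induces Ddit4. Of 11 of its targets 9 were higher, with a median of 0.34 (0.12 centred), and the 3 past 2-fold were the metallothionein genes Mt1 and Mt2 and Cebpd. Centred, 6 were higher and 5 lower, and the same 3 were past 2-fold, where 2.89% of all measured genes were. Mt1 was at 357 FPKM in control and 970 FPKM in Tsc1cKO.

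Immediate early genes, which respond to growth factors and also to dissection, had a median of 0.83 (0.62 centred). Of these genes 17 of 19 were higher, 8 of them past 2-fold, beside 67.0% and 5.03% of all measured genes. Centred, 14 were higher and 7 past 2-fold upward, beside 49.1% and 2.89%. Fos was at 7.86 FPKM in control and 63.1 FPKM in Tsc1cKO, and Atf3 at 5.04 FPKM in control and 37.6 FPKM in Tsc1cKO. Ddit4 is itself quickly induced. It was higher in Tsc1cKO, as were most of the immediate early genes, while 2 of the 19 were lower, or 5 centred. The part of these genes in the Ddit4 value was not tested.

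The tissue carried the markers of nerve. Sox10 and S100b, which mark Schwann cells, were at 212 and 169 FPKM in control and at 246 and 167 FPKM in Tsc1cKO, and all 7 usable Schwann cell markers were measured. Markers of other cells differed between the libraries. The 7 fibroblast markers summed to 10121 FPKM in control and 6592 FPKM in Tsc1cKO, with 6 of 7 lower, and all 8 endothelial and all 5 perineurial markers were lower, with sums of 130 and 134 FPKM in control and 103 and 106 FPKM in Tsc1cKO. The 8 skeletal muscle markers summed to 290 FPKM in control and 599 FPKM in Tsc1cKO, and 7 of 7 measured were higher. Of all measured genes 33.0% were lower and 67.0% higher. Centring left these 4 counts of markers as they were, beside 50.9% lower and 49.1% higher. Sums of 7 macrophage markers were 81.2 and 91.1 FPKM, of 7 mural cell markers 147 and 133 FPKM, of 4 mast cell markers 23.3 and 40.6 FPKM, of 6 adipocyte markers 230 and 304 FPKM and of 5 red cell markers 477 and 913 FPKM, control first. The 7 melanocyte markers summed to 16.1 FPKM in control and 1166 FPKM in Tsc1cKO, with 1 marker at 0 in each library. That sum was carried by Tyrp1, at 0.361 and 802 FPKM, and Pmel, at 8.95 and 354 FPKM, while Mitf was at 5.72 and 4.38 FPKM, control first. Of the rest, chosen after their values were seen, Dct was at 0.818 and 4.98 FPKM, Tyr at 0.248 and 0.168 FPKM, Oca2 at 0.0099 and 0.0087 FPKM, and Mlana was listed at 0 in both. In whole nerve, fewer cells of a type and less RNA per cell cannot be told apart, and the part of these shifts in the values of Irs1, Ddit4 and the other 8 genes was not tested.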

How the data were processed

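Frozen sciatic nerve gave total RNA (Trizol), from which Illumina's TruSeq RNA kit made the libraries, per the labels' protocols. The authors deposited 1 table of FPKM by gene for each library, per the file headers. Per the submitters' processing notes, which state no version, they used CASAVA, TopHat and Cufflinks with build mm9. Annotation, filters, strand setting and scaling total were not given in the sources used here. Depth was unknown, so no counting interval is given.

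Of 22096 symbols, 3 with a failed estimate were left out, and FPKM of entries sharing a symbol were summed. Differences were computed with a pseudocount of 1 in Python 3.11.15 with pandas 2.3.3 and numpy 2.4.6, and no test was made with 1 library per group. The scaling and counting steps were run on values made from the control library by a constant factor, with set changes planted in some genes. No spread was added, so this checked the arithmetic only, not how the steps handle noise or low genes. The 10 genes, the 11 pathway lists, the 11 marker lists and the rules were chosen with earlier results of these data known. Of 305 list entries 7 were matched through RefSeq synonyms (GRCm38.p6) and 3 were not used. Named genes were the 10 genes and, by rule, up to 4 measured genes with the largest absolute difference per pathway list, the gene with the highest mean FPKM and the top 3 markers by mean FPKM. Eif4e was added after values were seen. Not every gene that meets the rule is reported here. Alternatives were pseudocounts of 0.1 and 5, a minimum of 5 FPKM or none, median, upper quartile (factor 1.14) and trimmed mean (factor 1.17) scaling, and size rules of 1.5-fold and 3-fold.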

Additional observations from a re-analysis of the deposited data

How the results depend on the processing

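Ddit4 kept its direction and its side of 2-fold under all 7 alternatives of pseudocount, scaling and filter, with differences of 2.10 to 2.39. Irs1 ran from −0.97 to −0.50, Eif4ebp1 from 0.47 to 0.72, Sesn2 from 0.26 to 0.70 and Ddit4l from 0.18 to 0.88, none past 2-fold; Sesn2 and Ddit4l drop out at a minimum of 5 FPKM. Differences of Sesn3 turned to −0.16, −0.11 and −0.15, and those of Grb10 to −0.18, −0.13 and −0.16, under median, upper quartile and trimmed mean scaling, and that of Eif4ebp2 to −0.0036 under median scaling. The median of the 10 genes, 0.15, turned to −0.082, −0.036 and −0.068 under the same 3 scalings, which divide Tsc1cKO by a constant, and was 0.061 at a minimum of 5 FPKM, where 8 genes remain. A size rule of 1.5-fold put 2 genes higher and 1 lower, and a rule of 3-fold left 1 and 0. The shares of all measured genes past 1.5-fold and 3-fold were not computed, so these counts cannot be set against them. List medians turned under median scaling for insulin receptor, PI3K and AKT (−0.10), cap-dependent translation (−0.020), p53 (−0.016), FOXO (−0.11) and HIF1 targets (−0.0059). Under upper quartile scaling those of the insulin receptor and FOXO lists turned to −0.056 and −0.064, and under trimmed mean scaling those of insulin receptor, translation, p53 and FOXO lists to −0.089, −0.0058, −0.0043 and −0.095. Without genes of other lists, immediate early genes had a median of 1.01 and p53 targets of 0.053. The ratios of Eif4ebp1 to Eif4ebp2 and of Irs2 to Irs1 and the 3 sestrin shares kept their direction with 1 added to each FPKM; the other ratios were not recomputed this way. No paired analysis was possible because each group had 1 library, and no library could be left out. Since depth was unknown, no value has a counting error.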
